A study of Mus musculus with 49 samples.

Results

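The replication score, deposited for each cell as `repli_score`, is read here as the share of a cell's Hi-C coverage that lies in early-replicating parts of the genome. It was present for 4098 of the 5871 cells in 3 tables of single mouse embryonic stem (ES) cells, namely the cells that passed the authors' quality control: 1992 of 2924 diploid cells in 2i, 859 of 1175 diploid cells in serum and 1247 of 1772 haploid cells. Every passing cell and no failing cell carried a value. The files do not define the scale. The lowest value was 1 in each table and the highest were 1.517, 1.467 and 1.539, so a score is relative to the lowest cell of its own table, and no level was compared between tables.

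During S phase a cell copies its genome in a set order, with open, gene-rich domains first and compact domains last. A cell partway through S phase therefore holds an excess of copies of early domains, whereas a cell in G1 (before replication) or in G2 (after it) holds equal copies of both. A score of this kind is expected to be low in G1, to climb as early domains are copied and to return once late domains have been copied too.

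The 2 ES lines were a diploid F1 hybrid between 129/SV-Jae and castaneus mice, and the haploid line H129-1. Cells grew in 2i medium without feeders, or with serum on feeder cells that were later depleted, with Oct-3/4-positive cells then collected by flow sorting. Each line is a single cell line, the libraries are not stated to come from separate cultures, and p-values below therefore measure the spread between libraries. Hi-C gives no expression, so the ES identity of the cells could not be checked from markers. In the 2i diploid table the conditions are called 1CDU, NoSort and 4 sort gates, here the G1, early-S, mid-S and late-S/G2 gates (1CD_G1, 1CD_eS, 1CD_mS, 1CD_lS_G2), set on DNA content by Hoechst and on Geminin, a protein that builds up from S phase until mitosis. The serum diploid table holds 1CDS1 and 1CDS2, and the haploid table holds 2i_all, 2i_G1 and Serum_G1/S. What 1CDU, 1CDS1 and 1CDS2 stand for is not given in the sources used here.

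Passing cells came from 18 libraries in the 2i diploid table, 8 in the serum diploid table and 19 in the haploid table. Libraries held 4 to 162 passing cells and their passing cells 332107 to 50126513 contacts in all. The median cell had 205511 contacts in the 2i diploid table, 255605 in the serum diploid table and 80858 in the haploid table. No cell name occurred more than once. Of the 44 libraries in the deposited cell list, 42 came from 1 sequencing lane each and no lane held more than 1 library.

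The authors placed every passing cell in 1 of 5 groups (G1, early-S and late-S/G2, with pre-M and post-M around mitosis) and in a single order along the cycle. That order was checked against the score before it was used as an axis. In G1 the order was matched exactly, with a Spearman's rho of 1 in each table, by the sum of the standardised share of contacts in the near band (`f_near_band`) and the standardised distance of far contacts (`far_mu`), with no use of the score. In early-S it was the sum of the near-band share and the score with nearly equal weight, with rho of 0.999995 in the 2i diploid table over 882 cells. In late-S/G2 it was the near-band share minus the score at a weight of 0.4 in that table, with rho of 0.999998 over 649 cells. The weights were 0.46 in the serum diploid and 0.7 in the haploid table. A climb through early-S and a decline through late-S/G2 along this order are thus built into it. The group boundaries followed the near-band share: of all pairs of a G1 and an early-S cell, the early-S cell had the higher near-band share in 99.3% to 99.9%, and of all pairs of an early-S and a late-S/G2 cell the late-S/G2 cell had it in 99.0% to 99.6%. Axes that do not use the score are the sort gates and the near-band share itself.

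The sort gates gave the course of the score without any ordering of the cells by contacts. In the 2i diploid cells it was lowest in the G1 gate, intermediate in the early-S gate, highest in the mid-S gate and low again in the late-S/G2 gate. In the G1 gate the library means were 1.077 (141 cells) and 1.085 (134 cells). In the early-S gate they were 1.188 (154 cells) and 1.202 (143 cells). The mid-S gate had 1.281 (158 cells) and 1.285 (99 cells), and the late-S/G2 gate 1.133 (158 cells) and 1.120 (162 cells). No gate's pair of library means overlapped that of another gate. The steps from gate to gate were 0.113, 0.089 and -0.157, each several times the SD over the libraries of a gate, which ran from 0.0028 to 0.010 (n = 2 per gate).

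With 2 libraries against 2, the exact permutation of library labels cannot go below p = 0.333, and each of the 3 steps gave that value (adjusted p = 0.381 over 24 tests). A single exact permutation test over the 8 libraries and 4 gates, added after the data were seen, gave p = 0.0095, the smallest its 2520 arrangements allow. Differences between gates made up 99.5% of the variance of the 8 library means. Median contacts per cell also differed between these libraries, from 199393 in a G1 gate library to 340284 in a late-S/G2 gate library. Each step kept its direction in all 4 alternative settings run for it. One of these kept only cells with contacts between the 25th and 75th percentiles. Beyond that range of contacts, the part of depth in the steps was not tested.

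One further library, diploid 15_16_17_18, held cells of all 4 gates on a single lane, with 5 or 6 passing cells per gate. Its means were 1.087 in the G1 gate, 1.185 in the early-S gate, 1.318 in the mid-S gate and 1.146 in the late-S/G2 gate. The order of the gates within this lane was that of the larger libraries.

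**Figure D1:**
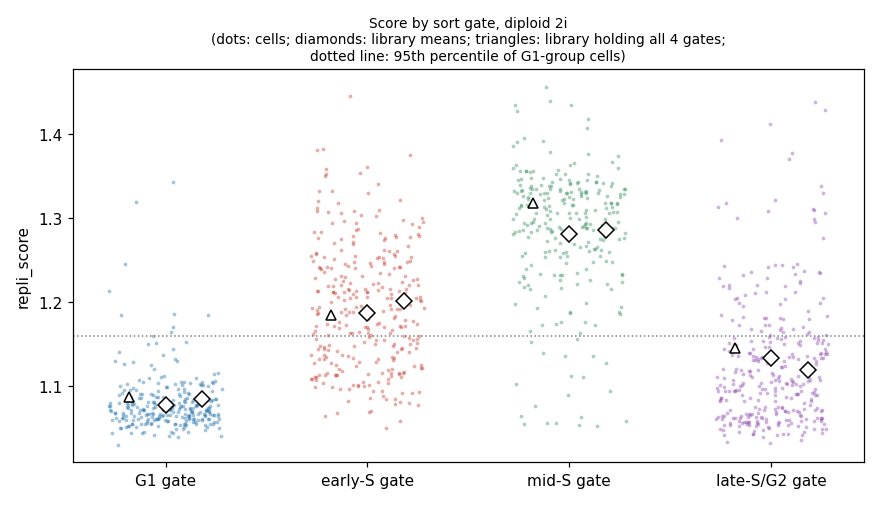
Score of each passing 2i diploid cell (dots; vertical axis, repli_score, no unit) in the 4 sort gates, with library means as diamonds (2 per gate) and the means of the library that held all 4 gates as triangles. The dotted line is the 95th percentile of G1-group cells, 1.160; the mid-S gate lies mostly above it and the G1 gate almost wholly below it.

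Cells within a gate were not alike. The SD over cells was 0.039 and 0.032 in the G1 gate libraries and 0.070 to 0.077 in the libraries of the other 3 gates. The central 90% of cells ran from 1.045 to 1.150 in G1 gate library diploid 19. In early-S gate library diploid 21 it ran from 1.088 to 1.301, which spans most of the climb. In late-S/G2 gate library diploid 26 it ran from 1.048 to 1.245.

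The 95th percentile of the G1-group cells of the 2i diploid table, 1.160, was used as a line to count by. Above it lay 3.55% of cells (exact Clopper-Pearson 95% interval 1.16% to 8.08%) and 2.99% (0.819% to 7.47%) in the G1 gate libraries. The early-S gate had 62.3% (54.2% to 70.0%) and 67.1% (58.8% to 74.8%). The mid-S gate had 92.4% (87.1% to 96.0%) and 91.9% (84.7% to 96.4%), and the late-S/G2 gate 24.1% (17.6% to 31.5%) and 22.2% (16.1% to 29.4%). These intervals cover counting error only. Of the 404 G1-group cells that set the line, 115 and 102 came from the G1 gate libraries diploid 19 and diploid 20. The low shares above the line in the G1 gate are thus partly built in. Most cells of the late-S/G2 gate thus lay within the range of G1 cells, and most cells of the early-S and mid-S gates above it.

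The mid-S gate straddled the boundary between the authors' groups without a step in the score. Of its 262 cells, 83 were in early-S with a mean of 1.289 (SD 0.077 over cells) and 170 in late-S/G2 with a mean of 1.290 (SD 0.064). Cells whose group did not match their gate followed their group only in part. Of the 280 cells of the G1 gate, 53 were placed in early-S. They had a mean of 1.091 (SD 0.031), close to the 1.075 of the 221 cells placed in G1. The 285 early-S cells of the early-S gate had a mean of 1.191. The 30 early-S cells of the late-S/G2 gate had a mean of 1.196 with an SD of 0.116. The early-S group, defined mainly by the near-band share, thus held cells of widely different score depending on the gate.

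The near-band share, the fraction of a cell's contacts at short distances, gave the second axis that does not use the score. With the G1, early-S and late-S/G2 cells of each table cut into 20 equal bins of near-band share, the mean score was nearly flat at first, climbed to a maximum in bins 13 to 15 and was lower in the last bin. In the 2i diploid table it was 1.082 in bin 1, 1.288 (SD 0.076 over 97 cells) in bin 14 at a near-band share of 79.1%, and 1.128 in bin 20. Serum diploid cells had 1.035 in bin 1, 1.271 (SD 0.073 over 42 cells) in bin 13 at 78.3%, and 1.122 in bin 20. Haploid cells had 1.101 in bin 1, 1.290 (SD 0.100 over 61 cells) in bin 15 at 76.9%, and 1.204 in bin 20. The haploid decline was not steady, with 1.263 in bin 17 and 1.284 in bin 18.

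The rise was measured within libraries, as the mean in 3 bins around the maximum found in the other libraries minus the mean of G1 cells. Along the near-band share, an axis added after the data were seen, it was 0.199 in 7 2i diploid libraries, 0.208 in 7 serum diploid libraries and 0.166 in 7 haploid libraries. Each gave p = 0.0156 in the two-sided exact sign-flip test over libraries, the smallest 7 libraries allow (adjusted p = 0.0417). The score thus rose in every one of these libraries. From the maximum to the last 2 bins it fell by 0.0924 in 8 2i diploid libraries (p = 0.0078, adjusted p = 0.0381, exact sign-flip test). The change was -0.106 in 4 serum diploid libraries (p = 0.125, the smallest possible there, adjusted p = 0.188) and -0.0518 in 7 haploid libraries (p = 0.0625, adjusted p = 0.107), and these did not pass.

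Along the authors' order the same course was steeper, as its construction requires. The 2i diploid mean was 1.074 in bin 1, 1.335 in bin 14 (SD 0.062 over 100 cells) and 1.089 in bin 20. The serum diploid mean was 1.045 in bin 1, 1.308 in bin 13 (SD 0.063 over 43 cells) and 1.068 in bin 20, and the haploid mean was 1.097 in bin 1, 1.368 in bin 15 (SD 0.069 over 63 cells) and 1.107 in bin 20. Within the G1 stretch, where the order does not use the score, the mean moved little. It stayed between 1.074 and 1.087 in bins 1 to 4 of the 2i diploid table. In the serum diploid table it ran from 1.032 to 1.045 in bins 1 to 3, and in the haploid table from 1.097 to 1.116 in bins 1 to 5. Bin 1 of the 2i diploid table was not G1 alone, since it held 20 cells of the late-S/G2 gate, which had only 3 G1 cells.

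**Figure D2:**
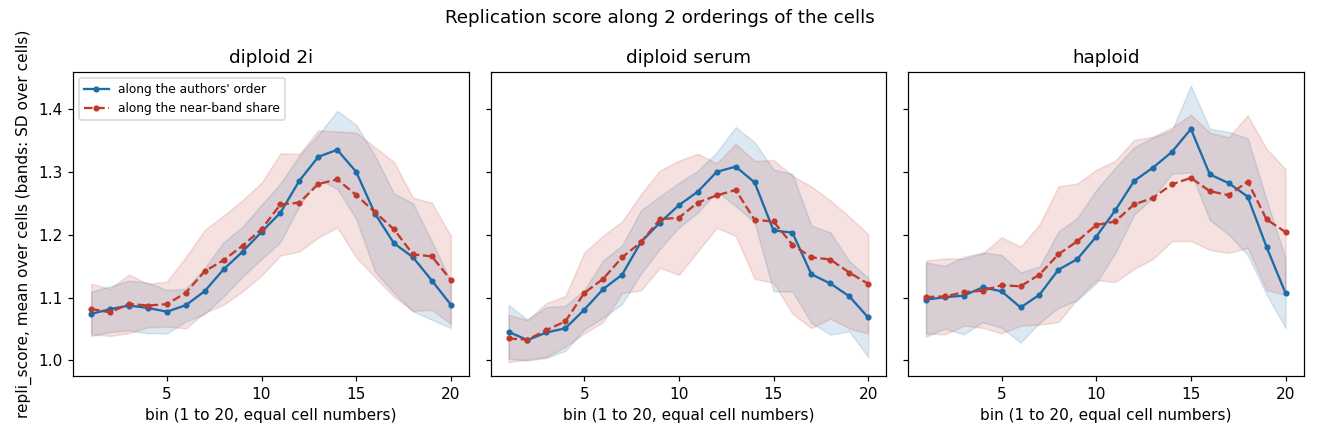
Mean repli_score (vertical axis, no unit; bands are the SD over cells) in 20 bins of cells along the authors' order (solid) and along the near-band share (dashed), for the 3 tables. Both courses climb to a maximum and end lower; the maximum along the order is 1.335, 1.308 and 1.368, against 1.288, 1.271 and 1.290 along the near-band share.

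The rise from G1 to the peak along the order was similar in size in each library. In the 2i diploid table it was 0.238 ± 0.018 (SD, n = 8 libraries), from 1.086 ± 0.028 in G1 to 1.324 ± 0.035 at the peak, and the 8 libraries ran from 0.206 to 0.260. For serum diploid cells it was 0.256 ± 0.018 (n = 8), with the libraries between 0.237 and 0.294. For haploid cells it was 0.236 ± 0.012 (n = 7), between 0.213 and 0.250. The exact sign-flip tests gave adjusted p = 0.0272, 0.0272 and 0.0375, but the peak window was found on an axis that holds the score, so these p-values do not test the rise independently of the order.

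The change from the peak window to the last 2 order bins was -0.176 ± 0.022 in 7 2i diploid libraries (adjusted p = 0.0375, exact sign-flip test), with the 7 values between -0.195 and -0.133. It was -0.187 ± 0.036 in 9 haploid libraries (adjusted p = 0.0272, exact sign-flip test). In 4 serum diploid libraries it was -0.204 ± 0.013, with all 4 negative and adjusted p = 0.188 in the same exact test, which cannot go below p = 0.125 with 4 libraries. The same reservation about the axis holds. The last 2 bins had means of 1.121, 1.081 and 1.138 over the libraries of this change, and G1 had means of 1.086, 1.043 and 1.092 over the libraries of the rise. Without any 1 of the 7 libraries the 2i diploid change was -0.183 to -0.172 and its adjusted p 0.0625 to 0.0682, and without any 1 of its 7 libraries the haploid rise was 0.234 to 0.240 and its adjusted p 0.0682 to 0.0750, since 6 libraries cannot give a smaller p in the exact test than 0.03125.

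Cells next to mitosis had scores well below the peak, and the few post-M cells of the serum diploid table lay above most G1 cells. The 28 pre-M and 29 post-M cells of the 2i diploid table had medians of 1.059 and 1.058, against 1.074 in G1, with none above 1.160. In the serum diploid table the G1 median was 1.027 and the 17 pre-M cells had 1.029, none above that table's line of 1.121, and the 6 post-M cells had 1.106, with 1 above it. In the haploid table the G1 median was 1.094 and the 21 pre-M cells had 1.085, with 1 above that table's line of 1.228, and the 3 post-M cells had 1.102.

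The position of the peak was found for each library and condition with enough cells, as the centre of the 3 order bins with the highest mean. Over the 14 such values of the 2i diploid table it lay in bins 13 to 15 (median 14), over 8 of the serum diploid table in bins 12 to 15 (median 12.5) and over 13 of the haploid table in bins 11 to 16 (median 14). Peak heights were 1.289 to 1.394, 1.266 to 1.334 and 1.254 to 1.374. Several of these windows rest on 5 to 10 cells. The order adds the score in early-S and subtracts it in late-S/G2, so high scores are drawn towards the boundary of these groups. The reservation about the axis therefore holds for the peak positions and for the tests of them below, which are not independent of the order.

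In the serum diploid table the peak lay in bins 13, 13, 14 and 15 in 1CDS1 and in bin 12 in each of 4 values of 1CDS2. The groups did not overlap. The difference of -1.75 bins gave p = 0.05 in the exact permutation of library labels, the smallest this design allows (adjusted p = 0.0923), and did not pass. Library diploid 5_10 held both conditions on 1 lane and had the peak in bin 15 for 1CDS1 and in bin 12 for 1CDS2. In the 2i diploid table NoSort and 1CDU differed by -0.75 bins (mean 13.5 ± 1.0 against 14.25 ± 0.50, n = 4 each, adjusted p = 0.436, exact permutation). In the haploid table serum and 2i differed by 0.58 bins (mean 14.25 ± 0.50, n = 4, against 13.7 ± 1.5, n = 9, adjusted p = 0.531, exact permutation). Neither passed, and the haploid difference was -0.44 bins with a window of 5 bins. The haploid 2i_G1 libraries peaked in bins 11, 12, 13 and 14, each with 5 cells in the window, and the 2i_all libraries in bins 14 to 16.

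The spread of the score over the cells of a library was smallest in G1 and larger in early-S. In the 2i diploid table the SD over cells was 0.033 ± 0.014 in G1 and 0.081 ± 0.029 in early-S (n = 10 libraries), a difference of 0.047 that was positive in 9 of 10 libraries (p = 0.0041, adjusted p = 0.0272, sign-flip permutation). The exception was diploid 20, a G1 gate library, with 0.021 in G1 and 0.016 in early-S. Serum diploid libraries had an SD of 0.035 ± 0.015 in G1 and of 0.092 ± 0.011 in early-S, larger in 7 of 7 libraries (adjusted p = 0.0375, exact sign-flip test, and 0.0625 to 0.0682 without any 1 library). In the haploid table it was 0.050 ± 0.020 and 0.097 ± 0.0095, larger in 9 of 9 libraries (adjusted p = 0.0272, exact sign-flip test). The spread rose along with the mean in each table. Within early-S, unlike G1, the score also climbed with the near-band share, as given below. The part of that climb in the spread was not tested.

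From early-S to late-S/G2 no change of the spread passed the test. The difference was -0.010 ± 0.027 in 9 2i diploid libraries (adjusted p = 0.381), -0.016 ± 0.022 in 7 serum diploid libraries (adjusted p = 0.175) and 0.0043 ± 0.018 in 9 haploid libraries (adjusted p = 0.531, all by exact sign-flip tests). Along the near-band share the SD over all cells of a bin was largest after the peak, at 0.107 in bin 17 of the 2i diploid, 0.113 in bin 17 of the serum diploid and 0.112 in bin 19 of the haploid table. These SDs pool libraries and conditions with unlike means. In bin 17 the mid-S gate had 1.272 (SD 0.056), the late-S/G2 gate 1.125 (SD 0.063) and NoSort 1.241 (SD 0.097). In serum, 1CDS1 had 1.276 (SD 0.092) and 1CDS2 1.134 (SD 0.098). The part of condition in the pooled SDs was not tested.

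The spread in G1 differed between cells of different depth, though not in steady steps. In the 2i diploid G1 cells the SD was 0.044 in the 25% of cells with the fewest contacts (median 64618) and 0.031 in the 25% with the most (median 279885), with 0.049 and 0.021 in the cells just below and just above the median of contacts. It was 0.050 against 0.028 in the serum diploid and 0.050 against 0.034 in the haploid table. The largest SD in the haploid table, 0.072, was in cells just below the median of contacts. The bands of depth draw on different libraries. The part of depth in the phase differences was not tested beyond the range of contacts given among the alternatives, where no gain in spread from G1 to early-S passed.

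Levels by condition showed where the libraries differed. In G1 the NoSort libraries had 1.070 ± 0.018 (SD, n = 4) and the 1CDU libraries 1.101 ± 0.029 (n = 4), with overlapping values. In early-S they had 1.195 ± 0.026 and 1.175 ± 0.025, and again overlapped. The climb from G1 to early-S was 0.109, 0.121, 0.130 and 0.138 in the NoSort libraries and 0.0698, 0.0699, 0.0716 and 0.0834 in the 1CDU libraries. These did not overlap, and the difference of 0.051 had p = 0.0286, the smallest possible, but an adjusted p of 0.0623 (exact permutation), so it did not pass. In late-S/G2 the NoSort libraries had 1.215 ± 0.013, and only 1 1CDU library reached 10 cells, with 1.328.

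In the serum diploid table the conditions differed most in late-S/G2. The 1CDS1 library means there were 1.264, 1.294, 1.314 and 1.324, and the 1CDS2 library means 1.129, 1.144, 1.145 and 1.155. No values overlapped. All late-S/G2 cells of the 1CDS1 libraries lay above that table's line of 1.121, against 46.7% to 65.6% of those of the 1CDS2 libraries. The conditions covered unlike stretches of the near-band share, however. Its bins 17 to 20, past the maximum of the score, held 9, 5, 4 and 2 cells of 1CDS1 against 33, 37, 38 and 40 of 1CDS2. In G1 both conditions had about the same score, 1.041 ± 0.013 (n = 3) in 1CDS1 and 1.043 ± 0.016 (n = 4) in 1CDS2.

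The change from early-S to late-S/G2 was 0.077 to 0.120 in the 1CDS1 libraries and -0.036 to 0.011 in the 1CDS2 libraries. The difference of -0.108 had p = 0.05, the smallest the design allows, and adjusted p = 0.0923 (exact permutation), so it did not pass. Within library diploid 5_10, on 1 lane, the 15 late-S/G2 cells of 1CDS1 had a mean of 1.324 (SD 0.055) and the 33 of 1CDS2 a mean of 1.146 (SD 0.090). Median contacts in these cells were 129734 and 313418, and the part of depth was not tested. The climb from G1 to early-S was 0.153 ± 0.0079 (n = 3) in 1CDS1 and 0.114 ± 0.025 (n = 4) in 1CDS2 (adjusted p = 0.0980, exact permutation).

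In the haploid table the climb from G1 to early-S was 0.145, 0.153, 0.159 and 0.170 in the 4 serum libraries and 0.0320, 0.0399, 0.0659, 0.0694 and 0.0972 in the 5 2i libraries. The G1 levels it starts from were 1.093 ± 0.012 in the 4 serum libraries and 1.130 ± 0.040 in the 4 2i_G1 libraries, of which haploid 11 was highest at 1.177, and 1.080 in the 2i_all library haploid 7. The climb was larger in serum by 0.096 (p = 0.0079, the smallest possible, adjusted p = 0.0272, exact permutation). From early-S to late-S/G2 the score changed by -0.0515, -0.0176, 0.0103 and 0.0406 in the serum libraries and by 0.0561, 0.0597, 0.0883, 0.133 and 0.150 in the 2i libraries, a difference of -0.102 (p = 0.0079, adjusted p = 0.0272, exact permutation).

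The haploid comparison set unlike sorts and depths against each other. Of the 5 2i libraries in the first difference, 4 were labelled 2i_G1 and 1 2i_all, and the 5 in the second were all 2i_all, while the serum libraries were all labelled G1/S. Median contacts per cell in early-S were 153154 to 215178 in the serum libraries and 25556 to 77716 in the 2i libraries. Medium, sort and depth cannot be told apart here. The first difference did not pass without haploid 7, 11, 12, 13, 14, 19 or 20 (0.089 to 0.105, adjusted p up to 0.0682), and the second did not without haploid 1, 3, 6, 7, 8, 19 or 20 (-0.117 to -0.086, adjusted p up to 0.0779, exact permutation). With only cells whose contacts lay between the 25th and 75th percentiles, the second was -0.0615 with 3 serum and 2 2i libraries (adjusted p = 0.40, exact permutation). The first did not pass in that range of contacts either. The early-S levels were 1.249 ± 0.022 (n = 4) in serum, 1.182 ± 0.027 (n = 4) in 2i_G1 and 1.157 ± 0.041 (n = 5) in 2i_all, and the late-S/G2 levels 1.245 ± 0.025 (n = 4) in serum and 1.254 ± 0.021 (n = 5) in 2i_all.

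**Figure D3:**
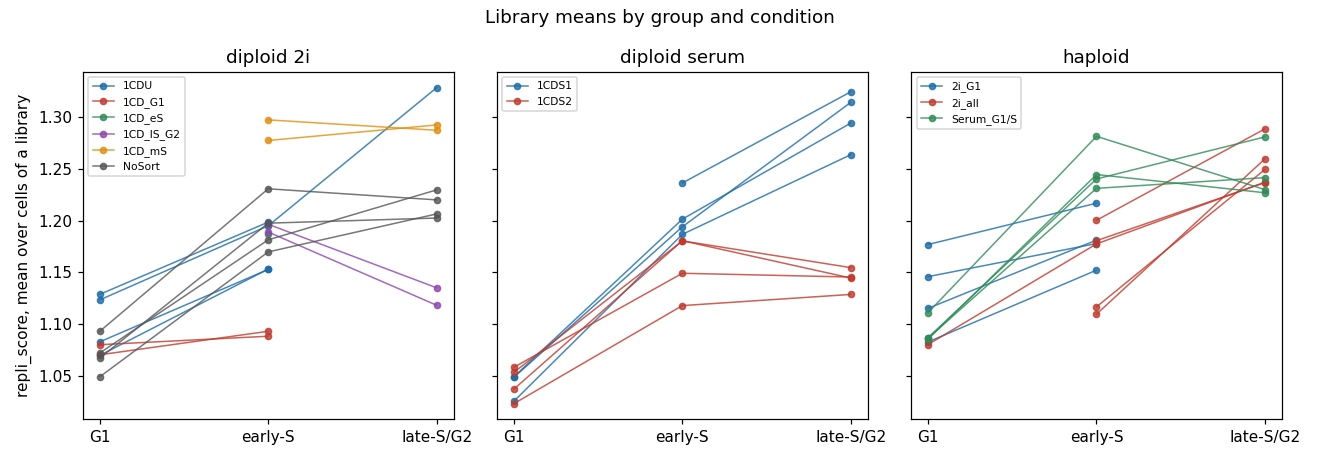
Mean repli_score of each library (dots, with lines joining the groups of 1 library; at least 10 cells per point) in the authors' G1, early-S and late-S/G2 groups, coloured by condition, for the 3 tables. In the serum diploid panel the 1CDS1 libraries lie at 1.264 to 1.324 in late-S/G2 and the 1CDS2 libraries at 1.129 to 1.155.

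Whether such differences remained at equal near-band share was asked by taking, for each cell, the departure of its score from the mean of its near-band bin over the whole table. This comparison was added after the data were seen. In late-S/G2 the departure was 0.0623 and 0.0643 in the mid-S gate libraries and -0.0515 and -0.0673 in the late-S/G2 gate libraries. The gap of -0.123 compares with -0.163 for the plain scores, and with 2 libraries each it had p = 0.333, the smallest possible (adjusted p = 0.333 over 8 such comparisons, exact permutation). In the serum diploid table it was 0.090 ± 0.031 in 1CDS1 and -0.030 ± 0.017 in 1CDS2 (n = 4 each), a gap of -0.120 against -0.156 for the plain scores (p = 0.05, the smallest possible, adjusted p = 0.20, exact permutation). In both pairs the library departures did not overlap, but neither gap passed. Cells of 1CDS1 and 1CDS2 filled the bins unevenly, so a bin mean lies nearer to the condition with more cells in that bin.

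The other gaps at equal near-band share were smaller than those of the late-S/G2 cells above, but not always smaller than the plain ones. In late-S/G2 the haploid serum libraries had -0.019 ± 0.021 (n = 4) and the 2i libraries 0.0062 ± 0.021 (n = 5), with overlapping values (adjusted p = 0.317, exact permutation). That gap was -0.025, against -0.0095 for the plain scores. In early-S the haploid serum libraries had 0.031 ± 0.020 (n = 4) and the 2i libraries -0.035 ± 0.049 (n = 9), a difference of 0.067 with p = 0.0294 and adjusted p = 0.20 (exact permutation). The plain haploid difference in early-S was 0.081. NoSort and 1CDU differed by -0.021 in early-S (adjusted p = 0.32, exact permutation), against 0.020 for the plain scores, a change of sign. In late-S/G2 they differed by -0.058, with only 1 1CDU library. In early-S the late-S/G2 gate minus the mid-S gate was -0.085, and 1CDS2 minus 1CDS1 was -0.024. None of the 8 comparisons passed after correction.

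**Figure D4:**
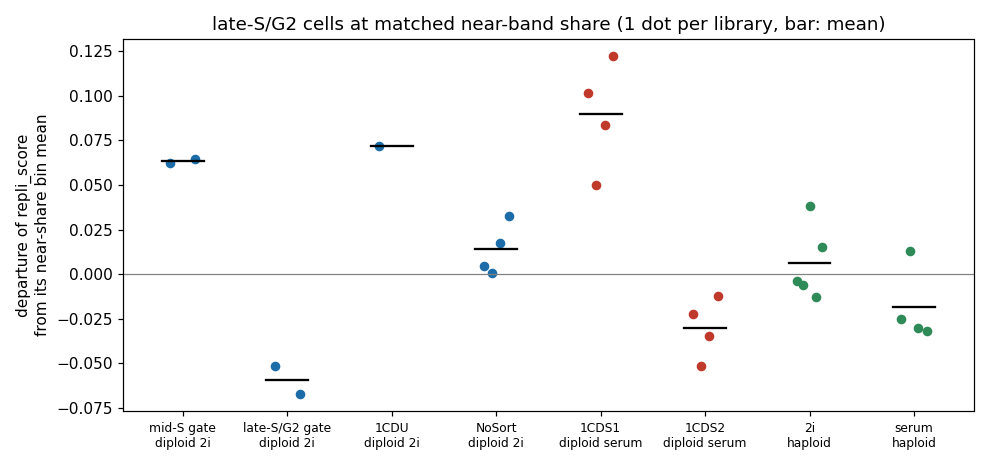
Departure of repli_score from the mean of its near-band bin (vertical axis, same scale as the score), averaged over the late-S/G2 cells of a library (dots) with the group mean as a bar. The mid-S gate and 1CDS1 libraries lie at 0.050 to 0.122, the late-S/G2 gate and 1CDS2 libraries at -0.067 to -0.012.

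Within libraries the score was related to 4 contact features by Spearman's rho over the cells of a group. These are descriptions over cells that share a library, with no p. The near-band share showed the clearest pattern, with opposite signs in early-S and late-S/G2. In early-S rho was positive in 14 of 14 2i diploid libraries (median 0.535, range 0.072 to 0.781), 6 of 6 serum diploid libraries (median 0.639) and 11 of 11 haploid libraries (median 0.534). The lowest, 0.072, was in diploid 20, a G1 gate library. In late-S/G2 it was negative in 8 of 8 2i diploid libraries (median -0.452, range -0.658 to -0.138), 6 of 6 serum diploid (median -0.334) and 9 of 9 haploid libraries (median -0.208). In G1 the medians were 0.043, 0.060 and 0.083, with libraries of either sign.

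The mitotic-band share (`f_mitotic_band`), the fraction of contacts at the distances that fill condensed mitotic chromosomes, ran opposite to the score in early-S. The rank correlation was negative in 13 of 14 2i diploid libraries (median -0.488), 6 of 6 serum diploid (median -0.597) and 10 of 11 haploid libraries (median -0.436). The 2 exceptions, diploid 20 and haploid 11, came from conditions labelled G1. In late-S/G2 the medians were 0.167, -0.015 and 0.012, with both signs among the libraries of each table. Near-band and mitotic-band shares are parts of the same contacts of a cell.

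The distance of far contacts and the share of contacts between chromosomes (`f_trans`) were positively related to the score in nearly all libraries in late-S/G2. For the distance, rho there was positive in 8 of 8 2i diploid (median 0.268), 6 of 6 serum diploid (median 0.327) and 9 of 9 haploid libraries (median 0.315). In early-S it was weakly negative in most libraries, with medians of -0.166, -0.071 and -0.046. For `f_trans`, rho in late-S/G2 was positive in 8 of 8 2i diploid (median 0.365), 4 of 6 serum diploid (median 0.415) and 9 of 9 haploid libraries (median 0.295). In early-S the tables differed in their values: 0.062 and -0.070 were the diploid medians and 0.345, with 10 of 11 libraries positive, the haploid one. That gap between tables was not tested. In G1 the `f_trans` medians were -0.020 and 0.088 in the 2i diploid and haploid tables and 0.362 in the serum diploid table, over only 3 libraries.

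**Figure D5:**
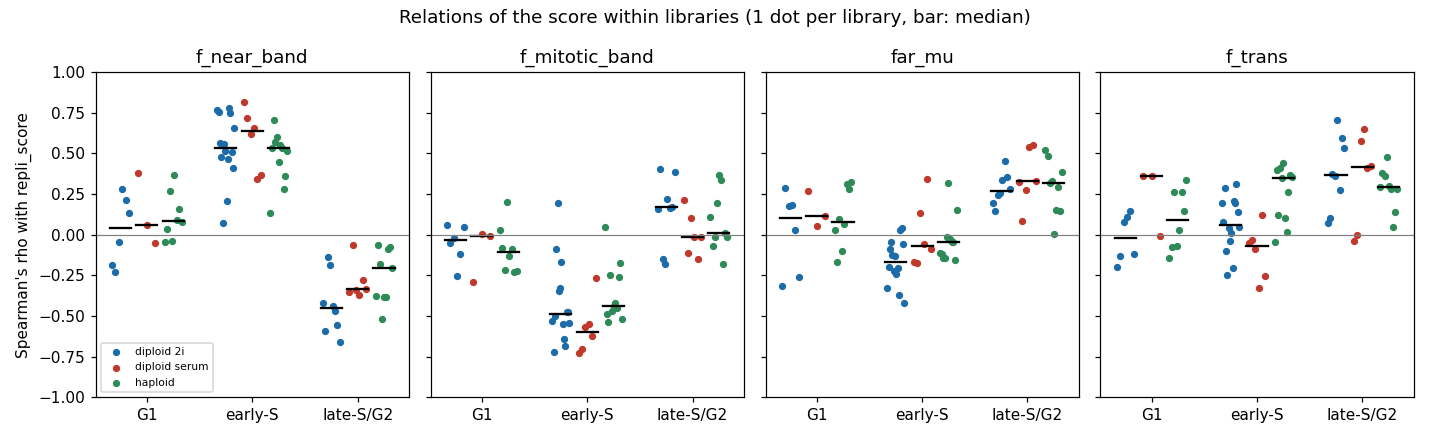
Spearman's rho between repli_score and 4 contact features over the cells of 1 library and group (dots; at least 20 cells; bars are medians), by group and table. For the near-band share the dots are above 0 in early-S and below 0 in late-S/G2 in each table.

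Depth and library quality moved with the score in some groups. With contacts per cell, rho was negative in late-S/G2 in 8 of 8 2i diploid (median -0.299), 6 of 6 serum diploid (median -0.335) and 8 of 9 haploid libraries (median -0.266). In G1 it was negative in 6 of 6, 3 of 3 and 8 of 8 libraries, and in early-S the medians were -0.014, 0.0045 and 0.097. With the share of duplicated fragment ends, rho in early-S was positive in 11 of 11 haploid libraries (median 0.362) and had medians of 0.137 and 0.133 in the diploid tables. In late-S/G2 it was negative in 7 of 8 2i diploid (median -0.241) and 6 of 6 serum diploid libraries (median -0.223), with a haploid median of -0.037. Given contacts per cell, the late-S/G2 medians changed sign, to 0.159, 0.367 and 0.341, and the early-S medians were 0.252, 0.507 and 0.521. With the share of contacts without digestion (`f_no_digestion`), rho in late-S/G2 was positive in 9 of 9 haploid libraries (median 0.149), and the 2i diploid G1 median was 0.226. Given contacts these were 0.067 and 0.118, and the late-S/G2 medians of the diploid tables went from 0.080 to -0.139 (2i) and from 0.037 to -0.192 (serum). With the deviation of chromosome coverage the medians lay between -0.124 and 0.109 in all groups. For the 4 contact features above, no median given contacts per cell lay further from the plain one than the SD over libraries.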

How the data were processed

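Single-cell Hi-C reads were aligned with Bowtie2 to mm9, per the submitters' processing notes. The deposited tables hold, per cell, the contacts as a count, the near-band, mitotic-band, inter-chromosomal, undigested and duplicated-end shares as a fraction per the file headers, `repli_score` and the chromosome coverage deviation as a score whose scale the authors do not define, and `far_mu` in bp. The limits of the bands are not given in the sources used here. The 4 nuclear RNA samples were not used here. Members, groupings and tests were chosen with earlier results of these data known.

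The deposited cell list tied batch numbers to samples; cells of 1 GEO sample in 1 table make up a library. Only cells passing the authors' quality control were used, cut into 20 bins of equal size. Values were averaged over cells within a library (at least 5 cells per side for rise and fall, 10 for spread, gates and conditions, 20 for relations), then tested over libraries: sign-flip tests within libraries (exact under 10 libraries, otherwise 100000 resamples) and exact permutation of library labels between conditions, where a library on both sides had its values swapped. All tests are two-sided, with Benjamini-Hochberg adjustment over 24 tests and a threshold of 0.05. The 24 include the rises and falls along the order, whose small p-values lower the adjusted p of other tests. The functions were tested on simulated data. Peak bins needed at least 5 cells in each of 10 windows. No gene is named, since the tables list cells. Computation used scipy 1.17.1, pandas 2.3.3 and numpy 2.4.6 under Python 3.11.15, and plots matplotlib 3.10.9.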

Additional observations from a re-analysis of the deposited data

Results flagged for a closer look

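In the haploid Serum_G1/S cells, the mean score in G1 of library haploid 19 was 1.111, apart from the other 3 libraries, the nearest of which was at 1.087. It was the only one of 29 groups of 4 to 10 libraries with such a value, and chance alone marks about 1 in 20. The haploid serum and 2i libraries differed in both phase changes by the test of the difference itself: the climb from G1 to early-S was larger by 0.0960 in serum, and the change from early-S to late-S/G2 differed by -0.102. Sort and depth differ with the medium in these libraries.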

How the results depend on the processing

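No paired analysis was possible because diploid and haploid libraries that share a number were never set against each other; groups within 1 library were paired by library. Of the tested results, every direction was kept except in 3 that had not passed: the haploid change of spread from early-S to late-S/G2 was -0.0049 in cells with contacts between the 25th and 75th percentiles, -0.00019 as an interquartile range and -0.00036 to 0.0070 without 1 library each, the 2i diploid one was 0.0077 without libraries of a single sort gate, and the haploid difference in peak bin was -0.44 with windows of 5 bins. Several settings took adjusted p over the threshold, most of them with fewer libraries. With at least 10 cells per side the rises were 0.234, 0.253 and 0.236 (2i diploid, serum diploid, haploid) and the falls -0.176 (2i diploid, the same 7 libraries, but adjusted among other p-values) and -0.171 (haploid). With contacts between those percentiles the rises were 0.238, 0.255 and 0.227, the falls -0.169 and -0.180, the gains in spread from G1 to early-S 0.0342, 0.0502 and 0.0522, and the haploid serum minus 2i differences 0.0897 and -0.0615, the second against -0.102. None of the 10 results that had passed did so in that setting. With a window of 1 bin the rises were 0.238, 0.258 and 0.277 and the falls -0.188 and -0.255. With at least 20 cells the gains in spread were 0.0394 (2i diploid) and 0.0457 (serum diploid). Along the near-band share the haploid fall was -0.0518 against -0.187 along the order, and without libraries of a single sort gate, an alternative chosen after seeing the data, the 2i diploid fall was -0.185 over 4 libraries. Leaving out 1 library in turn gave -0.183 to -0.172 for the 2i diploid fall, 0.0520 to 0.0624 for the serum diploid gain in spread, 0.234 to 0.240 for the haploid rise, and 0.0887 to 0.105 and -0.117 to -0.0862 for the haploid differences. Taking medians over cells or log2 of the score moved no result across the threshold. Of the relations to the 4 contact features, 2 medians, both in G1, moved by more than the SD over libraries: the mitotic-band share at -0.186 in 2 2i diploid libraries of at least 40 cells, and the far distance at a Pearson r of 0.301 over 3 serum diploid libraries. The haploid table has the lowest median of contacts per cell, and fewer than 6 libraries cannot reach 0.05 in a sign-flip test.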
